A study of Mus musculus and Meriones unguiculatus with 4 samples.

Results

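Imprinted genes are genes that a mammalian embryo transcribes mainly from the copy inherited from 1 parent, and 31 of them that bear on growth were followed in the enamel knot region of developing mouse and gerbil molars. The members were every row whose gene name in the mouse table, or gene symbol in the gerbil table, equalled 1 of the 31 symbols with case ignored. The mouse table of 27632 loci held 28 of the 31 and the gerbil table of 25745 genes held 20. Both tables held 19, and 17 of these passed the expression filter (levels in the 4 libraries averaging 1 or more). The mouse table alone held 9 (Peg3, Phlda2, Ndn, Peg10, Sgce, Igf2r, Gnas, Ppp1r9a and Tssc4) and the gerbil table alone held 1 (Snrpn). No row of either table was named H19 or Meg3. Gnas was split over 2 mouse loci, so the 28 genes made 29 mouse rows.

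The mouse group was wild type at embryonic day 13 and the gerbil group (Meriones unguiculatus) was wild type at embryonic day 15, with 2 libraries in each. Mandibular tooth germs were fixed in paraformaldehyde and cryosectioned, the enamel knot was cut out by laser, and RNA from it went into SMARTer mRNA-seq libraries. The enamel knot is a cluster of non-dividing epithelial cells that secretes signals where a cusp will form. The labels give neither the number of animals per library nor a marker by which the region was recognised. The spread between libraries of a species may thus be technical, or may come from a difference in stage or region. The column names end in PEK and SEK for mouse and contain E21 and E23 for gerbil; the labels explain none of these, and E21 and E23 are not the day of the labels.

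At most imprinted genes, imprinting is laid down as DNA methylation in the egg or the sperm and kept through the embryo's cell divisions. Many paternally expressed genes, such as the growth factor gene Igf2, promote growth of the embryo and placenta, and many maternally expressed ones, such as Igf2r, Grb10, Phlda2 and Cdkn1c, restrain it. The genes lie in clusters that share control elements, often with a long noncoding RNA. The tables give total RNA of a gene, with no separation of the parental copies, so imprinting itself was not measured.

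The mouse values are FPKM and the gerbil values TPM, each deposited by the authors and normalized separately. Each library was therefore rescaled to a sum of 1000000 over the 13321 genes matched between the tables, and these rescaled values are called levels. Levels are per transcript length, but a trend with length remained between the tables. Ratios within a library are therefore given for genes of similar exon length in mouse. Differences between species are given as gerbil minus mouse in log2(level + 1), which understates changes of genes near 0. They carry a standard error (SE) from the 2 libraries per species. If the column names mark different stages or regions, this SE includes that difference and is not replicate error alone. Depth is unknown for the mouse libraries and was not analysed here for the gerbil ones.

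Markers showed dental epithelium in all 4 libraries, with summed levels of 5707 and 8480 in mouse PEK and SEK and 9869 and 8688 in gerbil E21 and E23 over 10 genes. The 9 genes taken as enamel knot markers were Shh, Fgf4, Cdkn1a, Wnt10a, Wnt10b, Fgf9, Fgf20, Dkk4 and Sostdc1. They summed to 4374 and 3075 in mouse and 1541 and 1725 in gerbil, and Fgf20 was listed at 0 in E23. Whether each is particular to the knot was not tested, so the sum does not measure the content of knot cells. Other cell types were present: 15 dental mesenchyme markers summed to 1192 and 1069 in mouse and 2101 and 3651 in gerbil. The 10 matched skeletal muscle markers summed to 180 and 626 in mouse and 19.2 and 28.2 in gerbil, where Myod1 was at 0 in both libraries. The 5 neural markers summed to 42.1 and 54.1 in mouse and 279 and 262 in gerbil, with Elavl3 at 0 in both gerbil libraries. The part of these cells in the results was not tested, and in bulk tissue fewer cells of a type and less RNA per cell cannot be told apart.

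3 mouse promoters are shown because the results turn on their genes: Nnat has the widest gap between species, and Dlk1 and Grb10 are 2 of the members that differ between the gerbil libraries. Each run is the 250 bases before the RefSeq start in GRCm38.p6, read 5′ to 3′ on the gene's strand, with every CG in capitals, since CG is the dinucleotide at which imprints are methylated. Nnat lies on the plus strand at chr2:157559828-157560077, Dlk1 on the plus strand at chr12:109452573-109452822 and Grb10 on the minus strand at chr11:12037421-12037670.
Nnat: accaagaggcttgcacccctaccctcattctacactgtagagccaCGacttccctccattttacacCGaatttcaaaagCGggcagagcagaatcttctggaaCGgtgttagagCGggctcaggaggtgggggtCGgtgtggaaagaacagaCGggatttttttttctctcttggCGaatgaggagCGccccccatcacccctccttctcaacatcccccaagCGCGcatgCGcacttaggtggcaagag
Dlk1: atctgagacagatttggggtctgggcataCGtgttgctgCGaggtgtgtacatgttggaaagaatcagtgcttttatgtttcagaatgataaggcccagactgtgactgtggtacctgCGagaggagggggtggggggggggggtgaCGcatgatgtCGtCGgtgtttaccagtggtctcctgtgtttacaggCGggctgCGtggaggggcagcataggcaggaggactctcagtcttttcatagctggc
Grb10: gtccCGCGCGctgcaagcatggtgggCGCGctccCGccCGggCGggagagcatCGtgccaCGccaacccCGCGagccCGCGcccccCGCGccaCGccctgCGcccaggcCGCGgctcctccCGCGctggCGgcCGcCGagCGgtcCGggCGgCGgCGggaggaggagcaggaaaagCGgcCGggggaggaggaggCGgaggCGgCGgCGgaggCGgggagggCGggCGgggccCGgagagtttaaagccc
The Grb10 window shown holds 40 CG dinucleotides, a count that 1.31% of all RefSeq promoters of this length reach, while a second RefSeq start of Grb10, not shown, has 8 (43.0%). The Nnat window holds 12, reached by 33.5%, and the Dlk1 window holds 8, reached by 43.0%. These counts describe the letters only, and methylation was not measured. The windows were set by the RefSeq starts, and whether any of them carries the imprint of its gene was not tested.

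Nnat encodes neuronatin, a small membrane protein of the endoplasmic reticulum, and it was the member furthest apart between the species. Its level was 610 in mouse PEK and 522 in SEK, against 2.64 in gerbil E21 and 4.93 in E23. Both mouse libraries lay far above both gerbil libraries, and the spread within each species was small beside the gap. In the mouse libraries Nnat stood at the 98.3 and 97.1 percentiles of the matched genes, and in gerbil at the 31.2 and 33.7 percentiles. After removal of the length trend described below, the difference was -6.04 ± 0.45 (SE), or 66.0-fold, and without that step it was -6.93, or 122-fold. The call held in 11 of 11 alternative settings, between -7.80 and -5.72. Of the neural markers, 3 passed the filter, of which 1 was called higher in gerbil and 1 in mouse; their part in the Nnat difference was not tested.

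Cd81, the tetraspanin gene of distal chromosome 7, offers a reference of nearly the same transcript length within each library. Nnat and Cd81 have 1438 and 1533 bases of exon, but median transcript lengths of 843.5 and 1533. The ratio of their levels was 0.996 in PEK and 0.948 in SEK. In gerbil it was 0.0109 in E21 and 0.0166 in E23. The mouse Nnat locus lies at chr2:157560078-157562522 on the plus strand, inside the Blcap gene of the minus strand. The sources used here do not state whether reads were counted by strand. The mouse Blcap row was at levels of 34.6 and 42.3, and no gerbil row carried that symbol.

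**Figure D1:**
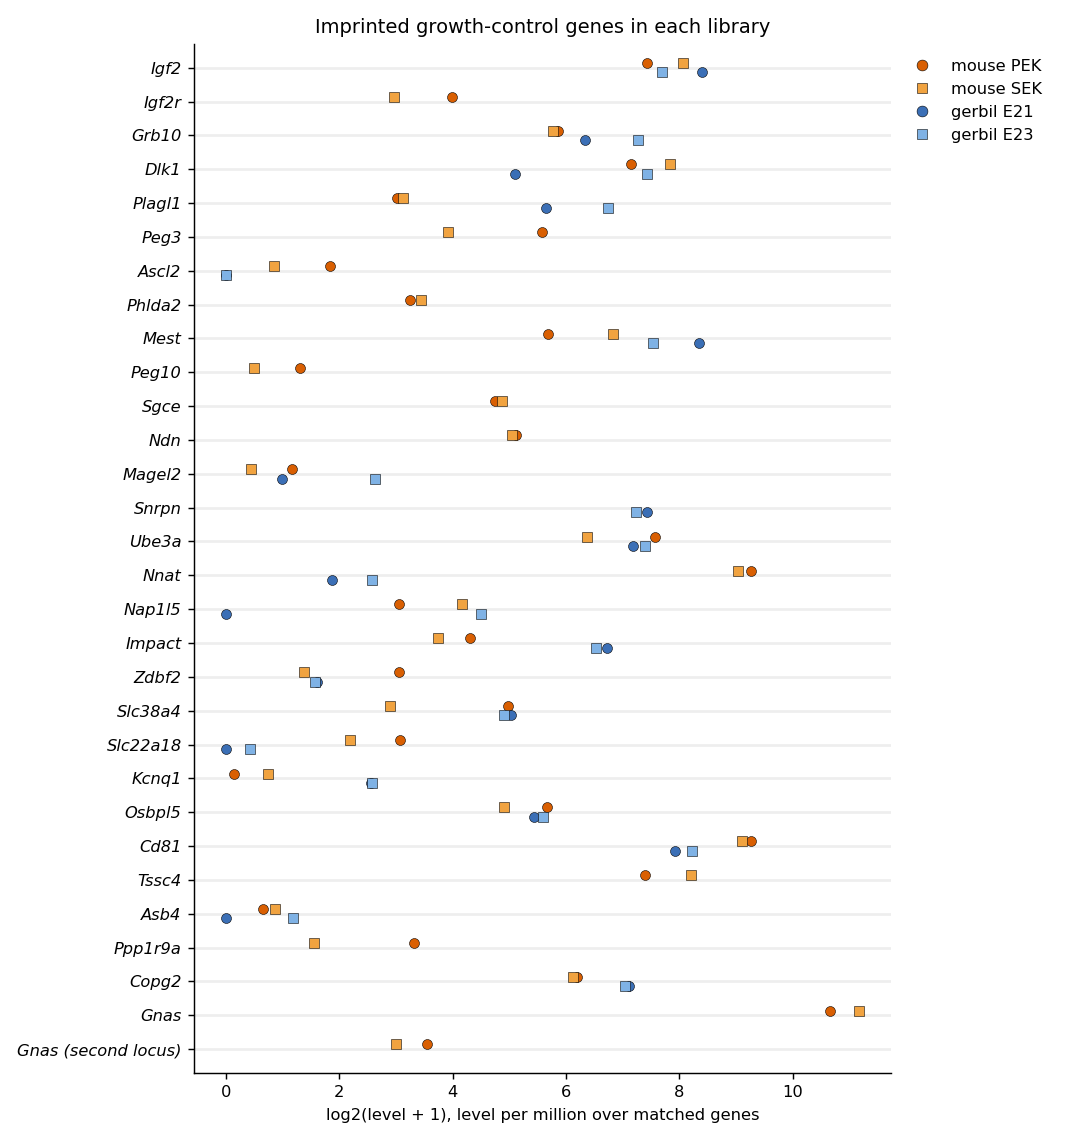
Level of every member in each library, on a log2(level + 1) axis; circles and squares tell apart the 2 libraries of a species, and a row with no gerbil point has no gerbil row of that symbol. The mouse points of Nnat sit at 610 and 522 and its gerbil points at 2.64 and 4.93, and Snrpn has gerbil points only.

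Igf2 was among the more abundant genes, between the 91.5 and 97 percentiles of the matched genes in the 4 libraries. Igf2, the ligand that drives fetal growth (chr7:142650766-142666816, minus strand), was at 172 in PEK and 266 in SEK and at 338 in E21 and 207 in E23. The 4 levels interleave, with the gerbil E23 library between the mouse ones. With the length trend removed both mouse libraries (7.90 and 9.13 in log2) lay above both gerbil ones (7.64 and 6.95). The difference was -1.22 ± 0.70 with the length trend removed and 0.31 without, so its sign depends on that step, and Igf2 met the 2-fold rule in neither. Without mouse PEK the rule was met, higher in mouse (-1.83).

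Igf2r carries Igf2 to the lysosome, and its row was present only in mouse, at levels of 14.9 in PEK and 6.79 in SEK. Its transcript is longer than that of Igf2 (8887 and 5249 exon bases). Grb10, the adaptor that dampens insulin and Igf receptor signalling (chr11:11930419-12038683), was at 57.3 and 53.4 in mouse and at 79.3 and 153 in gerbil. The 2 mouse libraries were close together and the gerbil ones were both above them, E23 the further. Its difference was -0.41 ± 0.53 with the length trend removed and 0.98 without, and neither met the rule. The Igf2 to Grb10 ratio, 2 transcripts of similar length (5249 and 5130 bases), was 3.01 and 4.98 in mouse and 4.27 and 1.35 in gerbil, which overlap. H19, the noncoding RNA beside Igf2, had no named row, and no mouse locus overlapped an annotated H19 exon.

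Dlk1 encodes a Notch-ligand-like membrane protein and shares its cluster with the noncoding RNA gene Meg3. Dlk1 (chr12:109452823-109463336) was at 141 in PEK and 227 in SEK, at 33.4 in E21 and at 171 in E23. Gerbil E21 stood alone below the other 3 libraries, and E23 lay within the mouse range. The difference was -2.63 ± 1.34 and did not meet the rule; it was -1.23 without the length step. It met the rule, higher in mouse, without gerbil E23 (-3.83), without mouse PEK (-3.23) or with neither the length step nor the rescaling (-2.97). With the median transcript length in place of the exon length it shrank to -0.97 and did not meet the rule. The Dlk1 to Igf2 ratio was alike in 3 libraries, 0.820 in PEK, 0.852 in SEK and 0.826 in E23, and was 0.0987 in E21. The 2 genes are similar in exon length (4785 and 5249 bases) but not in median transcript length (1703 and 3708).

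Meg3 had no row of that name, but 1 unnamed mouse locus on its strand, chr12:109544644-109546529, overlapped 1325 bases of Meg3 exons. That locus was at 307 in PEK and 142 in SEK, the reverse order of Dlk1. 2 small unnamed loci further along also touched Meg3 exons, 1 on the same strand at 8.86 and 5.55 and 1 on the opposite strand at 81.7 and 16.1.

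Of the transcription factors, Plagl1 was the one with a wide gap between species on the uncorrected scale. Plagl1 encodes a zinc finger protein (chr10:13060504-13131695) whose level was 7.10 in PEK and 7.73 in SEK, against 49.0 in E21 and 106 in E23. Both gerbil libraries were above both mouse libraries. Before the length step it was higher in gerbil by 3.12, and with it the difference was 1.46 ± 0.68 and short of the rule. With the length trend removed it met the rule without mouse SEK (1.86) or without gerbil E21 (2.02). The Plagl1 to Grb10 ratio, at similar lengths of 5383 and 5130 bases, was 0.124 and 0.145 in mouse and 0.618 and 0.694 in gerbil.

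Peg3, another zinc finger gene, was at 46.5 in PEK and 14.2 in SEK and had no gerbil row of that symbol. 2 gerbil rows are described as Peg3 in the table, at 117 and 200 in E21 and E23 for the first and at 109 and 106 for the other. Ascl2, a helix-loop-helix factor needed in the trophoblast, was at 2.55 and 0.799 in mouse and listed at 0 in both gerbil libraries. It failed the filter, as did Asb4, an ankyrin repeat protein gene, which was at 0.570 and 0.826 in mouse and at 0 and 1.27 in gerbil.

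Impact, which encodes an inhibitor of the translational stress kinase Gcn2, was higher in gerbil. Its level was 18.8 in PEK and 12.4 in SEK against 104 in E21 and 91.5 in E23, so the groups did not overlap. The difference was 1.75 ± 0.15 with the length trend removed and 2.60 without. Against Copg2, a coatomer subunit gene of similar length (3763 and 3961 bases of exon), the ratio was 0.260 and 0.179 in mouse and 0.762 and 0.701 in gerbil. The call held in 11 of 12 alternatives and ended with neither the length step nor the rescaling (0.71).

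Mest and Copg2 are neighbours on mouse chromosome 6 that share 912 bases on opposite strands. Mest, a hydrolase-like gene used as a marker of fetal mesoderm, was at 50.2 and 112 in mouse and at 326 and 185 in gerbil. All gerbil values were above all mouse values, but the 2 libraries of each species lay further apart on the log scale than the nearest libraries of different species. The difference was 1.305 ± 0.71, short of the rule, and it met the rule without mouse SEK (1.91) or without gerbil E23 (1.68). Copg2 was among the steadiest members, at 72.3 and 69.0 in mouse and 137 and 131 in gerbil. Its difference was -0.04 ± 0.10 with the length trend removed and 0.91 without, and it did not meet the rule in either form.

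The Prader-Willi region of mouse chromosome 7 holds the MAGE family genes Ndn and Magel2, the splicing protein gene Snrpn and the ubiquitin ligase gene Ube3a. Ube3a, which is imprinted in neurons, was at 190 in PEK and 82.0 in SEK and at 145 and 168 in gerbil. The gerbil levels lie between the mouse ones, yet with the length trend removed Ube3a was higher in mouse by the rule (-1.92 ± 0.23). The call rests on that step, which moved this gene of 10947 exon bases by -2.23; without it the difference was 0.32. Ube3a overlaps Snhg14 on the other strand.

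Snrpn was at 172 in E21 and 150 in E23 in gerbil. In mouse its exons overlapped a locus named Snurf by 2159 bases, and that locus was at 241 and 307. Ndn was at 33.6 and 32.1 in mouse; 2 gerbil rows are described as Ndn and carry the same pair of values, 13.3 and 14.5. Magel2 was low throughout, at 1.24 and 0.356 in mouse and 0.980 and 5.18 in gerbil, with a difference of -0.29 ± 0.86 that met the rule without gerbil E23 only (-1.14, higher in mouse).

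Distal mouse chromosome 7 carries, in order, Igf2, Ascl2, Cd81, Tssc4, Kcnq1, Cdkn1c, Slc22a18, Phlda2 and Osbpl5. 8 of these, without Tssc4, lay in the same order on 1 gerbil scaffold, counting Phlda2 by its description. Only Kcnq1 among them had both gerbil levels above both mouse levels, and it passed the filter only through gerbil. Kcnq1, a potassium channel gene (chr7:143106362-143427042), was near the bottom of the range, at 0.104 and 0.677 in mouse and 4.90 and 4.93 in gerbil. It met the rule, higher in gerbil (1.61 ± 0.33, and 2.12 without the length step), but the call ended when the length step was dropped together with centring each library on its median (1.24), with leaving the values as deposited (0.45) or with ranking. By rank the species means were 14.3 percentile points apart, and a call asks for 10 between the nearest libraries. The gene overlaps the noncoding Kcnq1ot1 on the other strand.

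Slc22a18, an organic cation transporter gene, went the other way, at 7.45 and 3.55 in mouse, 0 in E21 and 0.340 in E23. It was just short of the rule at -1.81 ± 0.64 and met it, higher in mouse, without the length step (-2.42). Across alternatives it met the rule in 9 of 11. Cd81 was at 613 and 551 in mouse and 241 and 296 in gerbil, a difference of -0.34 ± 0.30, or -1.12 without the length step. It met the rule in neither, but did so, higher in mouse, when the length step was dropped and each library was centred on its median (-1.99) or left as deposited (-2.97). Osbpl5, which encodes a lipid transfer protein, was at levels of 49.4 and 28.9 in mouse and 42.5 and 47.1 in gerbil, which overlap. Its difference was -0.76 ± 0.24 (0.24 without the length step). With the length trend removed both mouse libraries (5.98 and 5.55 in log2) lay above both gerbil ones (4.90 and 5.12), short of the rule. Phlda2, a growth inhibitor of the placenta, was at 8.46 and 9.90 in mouse, and the gerbil row described as Phlda2 was at 6.03 and 3.48. Tssc4, a spliceosome assembly factor gene, was at 166 and 293 in mouse.

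Cdkn1c is no member but lies among them; it encodes the cell cycle inhibitor p57 and was at 629 and 410 in mouse and 42.4 and 32.4 in gerbil. It was higher in mouse by -3.45 ± 0.46 on the gerbil minus mouse scale, and by -3.74 without the length step.

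**Figure D2:**
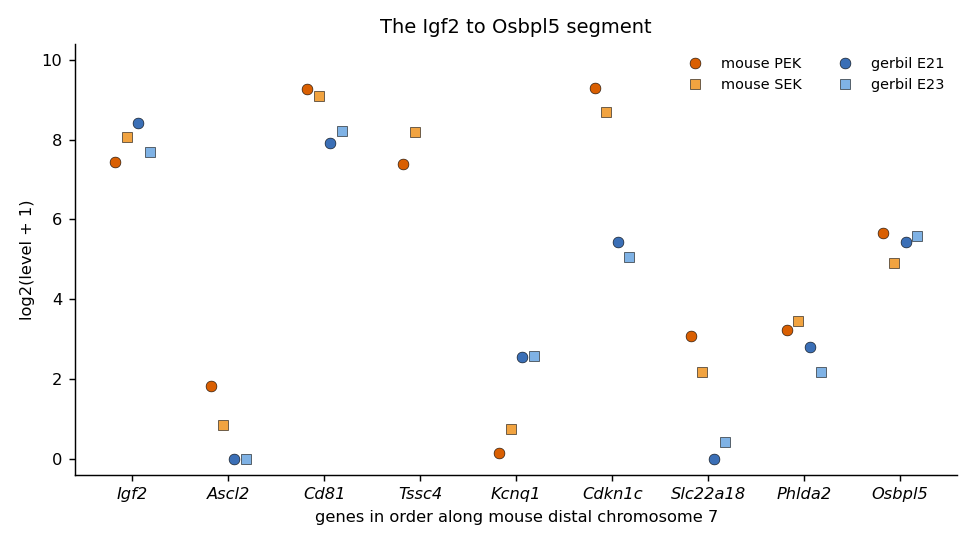
Levels of the 9 genes of distal mouse chromosome 7 in the order of the chromosome, on a log2(level + 1) axis with 1 symbol per library; Cdkn1c is shown for its place and is no member. Gerbil points lie above mouse points for Kcnq1 only, near the bottom of the axis. They lie below them for Ascl2, Cd81, Cdkn1c, Slc22a18 and Phlda2, and the points of Igf2 and Osbpl5 interleave.

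The transporter gene Slc38a4, which carries amino acids in placenta and liver, was at 30.5 in PEK and 6.42 in SEK and at 31.8 and 28.8 in gerbil. Mouse SEK alone was low, and the difference was -0.01 ± 0.84. Zdbf2, a zinc finger gene with 12629 exon bases, the longest of the 17 compared between species, was at 7.28 and 1.58 in mouse and 2.04 and 1.95 in gerbil, which overlap. With the length trend removed it met the rule, higher in mouse (-2.88 ± 0.42), and without that step it did not (-0.63). Nap1l5, a nucleosome assembly protein-like gene, was at 7.35 and 16.8 in mouse and at 21.8 in E23, and it was listed at 0 in E21. It differed by -0.92 ± 2.30, and without gerbil E23 it met the rule, higher in mouse (-3.17).

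Gnas encodes the stimulatory G protein alpha subunit, and it had the highest level of the members in mouse. Its main mouse locus, chr2:174284320-174346744, was at 1607 in PEK and 2312 in SEK, and the small second locus within it was at 10.7 and 7.0. The gerbil row described as Gnas was at 1509 and 1561. Sgce (epsilon-sarcoglycan) was at 25.9 and 28.4 in mouse. Its neighbour Peg10, a retrotransposon-derived gene of the placenta, was at 1.48 and 0.402. Ppp1r9a, the actin-binding scaffold neurabin, was at 8.98 and 1.94.

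Among all 10328 matched genes past the filter, 28.5% met the rule in either direction with the length trend removed: 13.5% higher in gerbil and 15% higher in mouse. Of the 17 members, 2 were higher in gerbil (Impact and Kcnq1) and 3 in mouse (Ube3a, Nnat and Zdbf2), which is 29.4%, near that background. Kcnq1 passed the filter only through gerbil, its mean level in mouse being 0.390. The rule asks that both libraries of a species lie at least 2-fold above both of the other. The members' median difference was -0.41 and that of all genes -0.02. Because the tables were normalized separately no test was run between them, and with 2 libraries a side the smallest two-sided p of an exact permutation test is 0.333.

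The length trend mattered for this set. Before correction, the median difference was -1.16 in the 1033 genes with the shortest transcripts and 2.04 in the 1032 with the longest. The median of each of 40 length bins was subtracted in each library. Without this, 41.7% of all genes met the rule, 3039 genes or 29.4% higher in gerbil and 1263 or 12.2% higher in mouse. Members then counted 3 higher in gerbil (Plagl1, Impact and Kcnq1) and 2 in mouse (Nnat and Slc22a18), with a median of 0.32 against 0.61 over all genes. The sign changed with the correction for 7 of the 17: Igf2, Grb10, Magel2, Ube3a, Slc38a4, Osbpl5 and Copg2. Only Nnat, Impact and Kcnq1 met the rule in the same direction both ways, 17.6% of the members against 20.1% of all genes. Kcnq1 and Slc22a18 passed the filter only through the species in which they were high, so their calls carry less weight. With neither the length step nor the rescaling, 386 genes met the rule on the gerbil side and 3824 on the mouse side, around an all-gene median of -0.94.

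**Figure D3:**
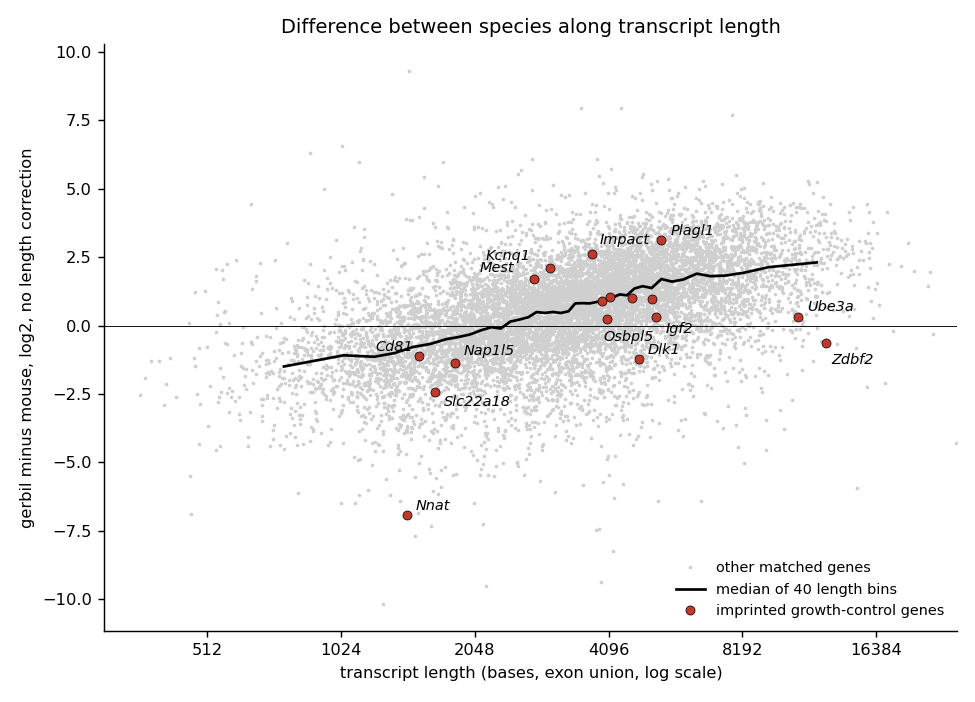
Difference between species before correction (gerbil minus mouse, log2) against transcript length in bases on a log axis; grey points are other matched genes, the line is the median of 40 bins and red points are the 17 members, 4 of them close to the line left without a name. The line climbs with length, Ube3a and Zdbf2 lie far below it at its long end, and Nnat lies at -6.93 near its short end.

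**Figure D4:**
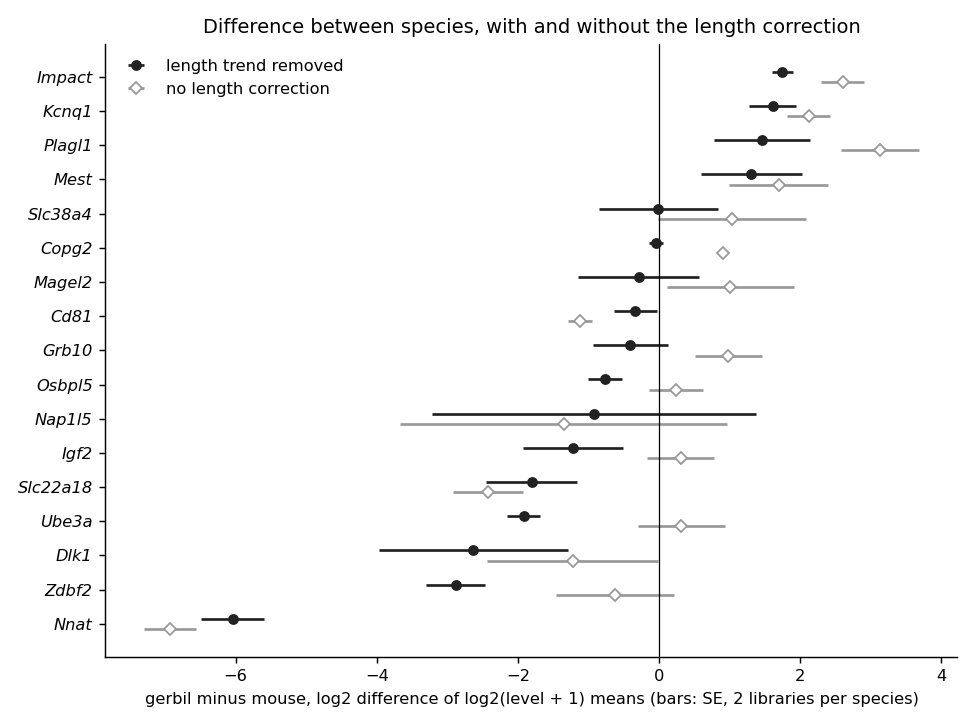
Difference between species for the 17 members in log2 with the length trend removed, with bars of 1 SE from the 2 libraries per species, beside the value without that step. Nnat stands alone at -6.04, and the markers of Ube3a lie on opposite sides of 0.

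Within mouse, 25 of the 29 member rows passed the filter, and 4 were at least 2-fold higher in SEK and 3 in PEK with the length trend removed. That is 28%, against 17.5% of all 13015 mouse rows (8.88% higher in SEK and 8.66% in PEK). This sets 1 library against 1, so there is no test. The 4 higher in SEK were the main Gnas locus (1.44), Igf2 (1.33), Mest (1.27) and Dlk1 (1.21), as SEK minus PEK in log2. On the same scale the 3 higher in PEK were Slc38a4 (-1.65), Ascl2 (-1.24) and Slc22a18 (-1.13). Ascl2 passed the filter only through PEK, its level in SEK being 0.799.

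On uncorrected levels, Mest (1.14) and Slc38a4 (-2.09) stayed past 2-fold. Gnas (0.52), Igf2 (0.62) and Dlk1 (0.68) did not, nor did Ascl2 (-0.98) and Slc22a18 (-0.89). Others came in: Nap1l5 (1.09) in SEK, and Ppp1r9a (-1.76), Zdbf2 (-1.68), Peg3 (-1.64), Ube3a (-1.20) and Igf2r (-1.03) in PEK. That made 2 higher in SEK and 6 in PEK, or 32%, against 25% of all rows, of which 6.29% were higher in SEK and 18.7% in PEK. Muscle markers moved with SEK: 6 of 10 were at least 2-fold higher there and 1 in PEK, and their sum was 180 in PEK and 626 in SEK. Of 6 cartilage and bone markers 4 were likewise higher in SEK and 1 in PEK, with sums of 118 and 371. Of 9 enamel knot markers 1 was higher in SEK and 4 in PEK, and of 15 mesenchyme markers 4 were higher in SEK and 7 in PEK. Of 5 blood and immune markers 3 were higher in SEK, with sums of 9.27 and 28.3, and of 6 endothelial ones 2 were, with sums of 111 and 205. The part of these cells in the higher Igf2, Mest and Dlk1 was not tested.

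Within gerbil, 17 of 20 member rows passed the filter, and 5 were at least 2-fold higher in E23 and 0 in E21. That is 29.4%, against 10.2% of all 10698 gerbil rows (6.6% higher in E23 and 3.62% in E21). The 5 were Dlk1 (2.39 as E23 minus E21 in log2), Magel2 (1.70), Plagl1 (1.18), Grb10 (1.04) and Nap1l5. Nap1l5 was listed at 0 in E21 and so has no fold. Nap1l5 and Magel2 (0.980 in E21) passed the filter only through E23, the library where they were high. Grb10 was at 0.94 without the length step, which left 4, or 23.5%, against 10.2% of all rows (6.11% higher in E23 and 4.07% in E21). Igf2 (-0.61) and Mest (-0.74) were lower in E23 by less than 2-fold.

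Markers of other cells also differed between the gerbil libraries. Of the 6 matched endothelial markers, 5 were at least 2-fold higher in E23, and their sum was 34.99 in E21 and 169 in E23, with Emcn at 0 in E21. All 5 blood and immune markers were at least 2-fold higher in E23, with sums of 7.62 and 38.8. Of the 15 mesenchyme markers 2 were higher in E23 and 1 in E21, with sums of 2101 and 3651, and of the 9 enamel knot markers 0 were higher in E23 and 3 in E21. Their part in the differences of Dlk1, Plagl1 and Grb10 was not tested.

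14 members passed the filter in both within-species comparisons, and Dlk1 was the only one past 2-fold in both. Among all 9276 such matched genes, 298 were. Igf2 and Mest were past 2-fold in mouse and on the other side of 0 in gerbil, but PEK to SEK and E21 to E23 are not known to be like contrasts.

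**Figure D5:**
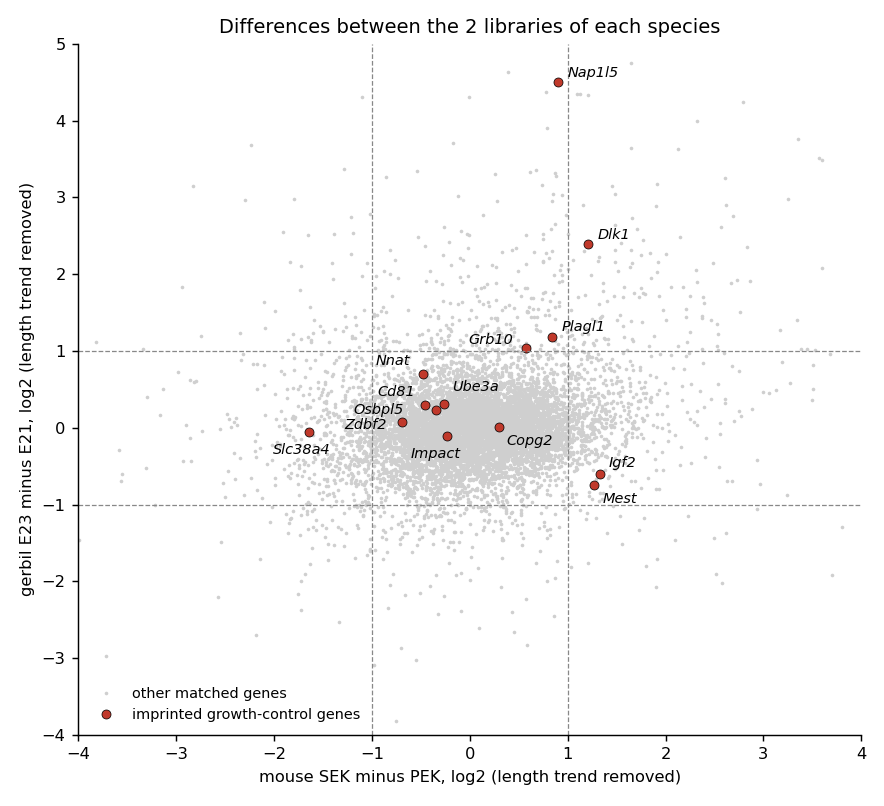
Difference between the 2 libraries of each species in log2 with the length trend removed, mouse SEK minus PEK on the horizontal and gerbil E23 minus E21 on the vertical axis; dashed lines mark 2-fold and red points are the 14 members past the filter in both. Dlk1 lies past both lines at 1.21 and 2.39; Nap1l5 is drawn from log2(level + 1), its E21 value being 0.

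Genes around the members were taken from 3 lists of the pathway. Of the Igf axis, 15 of 20 listed genes passed the filter, 2 met the rule in each direction (26.7%), and the median was -0.13. Those in gerbil were Irs1, a docking protein of the insulin and Igf receptors (3.04 ± 0.46), and Igfbp6, an Igf binding protein with preference for Igf2 (2.701 ± 0.63). Those in mouse were the binding protein Igfbp4 (-4.19 ± 0.25) and the docking protein Irs2 (-2.62 ± 0.14). On uncorrected levels the calls were 4 in gerbil and 2 in mouse (median 0.50), not all for the same genes. Irs1 (5.20) and Igfbp4 (-3.25) met the rule both ways. Without the length step Igfbp6 (1.58) and Irs2 (-0.79) did not.

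Of the genes that set and keep imprints, 17 of 25 passed the filter and 1 met the rule, Arid4b, a chromatin regulator (-1.59 ± 0.18, higher in mouse), which is 5.88% with a median of -0.52. On uncorrected levels the calls were 6 in gerbil and 0 in mouse (median 0.86), and Arid4b was on the other side of 0 (0.26). Of 51 further imprinted genes, 22 passed, with 1 called in gerbil and 5 in mouse (27.3%; median -0.21). Mkrn3, a ring finger gene of the Prader-Willi region, was the 1 in gerbil (2.03 ± 0.25). Cdkn1c, given above, the signal peptide peptidase gene H13 (-2.84 ± 0.18), Begain (-2.76 ± 0.23), Adam23 and Inpp5f were higher in mouse. Uncorrected levels gave calls for 8 in gerbil and 3 in mouse (median 1.01). Mkrn3, Cdkn1c, H13 and Begain kept their calls there, and Adam23 (-0.42) and Inpp5f (0.39) did not.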

How the data were processed

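RNA-seq was measured in 2 mouse and 2 gerbil libraries. Per the submitters' processing notes, cutadapt 2.8, STAR 2.7.1a and RSEM 1.3.1 were used with GRCm38 (mm10) for mouse, in roles the notes do not state. For gerbil, no build is given in the sources used here. The authors deposited mouse values as FPKM of each assembled locus. The authors deposited gerbil values as TPM of each gene; 4 further per-sample columns of it, whose samples could not be mapped, were not used. Columns show the species but no sample number, so each is an unnumbered library of its group.

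Symbols occurring once in each table were matched (13321 genes), values rescaled to 1000000, log2(level + 1) taken with a pseudocount of 1, and genes kept whose levels averaged 1 or more (10328). Transcript length is the exon union of the GENCODE basic annotation of GRCm38; these mouse lengths also served for gerbil genes. The median deviation along length was subtracted in 40 bins per library. A gene is called when both libraries of 1 species lie at least 2-fold above both of the other; within a species, 1 library is set against 1 over all named rows of the table. The procedure was tested on simulated data (Python 3.11.15, pandas 2.3.3, numpy 2.4.6).

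The members and lists were chosen with earlier results of these data known. All members are accounted for; those at a mean level of at least 10 in a species, called or past 2-fold get values in every library, and of each other list at most 4 called genes with the widest gap, and Cdkn1c, are given with their values. Alternatives changed the pseudocount, filter, scaling, length step and libraries kept; the median transcript length was added after seeing the data.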

Additional observations from a re-analysis of the deposited data

How the results depend on the processing

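Calls higher in mouse held for Nnat in 11 of 11 alternatives that tested it, for Ube3a in 8 of 12 and for Zdbf2 in 7 of 11; calls higher in gerbil held for Impact in 11 of 12 and for Kcnq1 in 8 of 11. Ube3a and Zdbf2 kept their calls in every setting with the length step and lost them in every setting without it. Their counts therefore only tell how many settings kept that step. Ube3a changed sign without the length step on levels (0.32) and on percentile ranks (1.79 points). With a mean level of at least 10 in each species, 690 genes were called higher in gerbil and 785 in mouse, members 1 and 1; fewer genes were tested (6726). Without the length step 3039 genes were called higher in gerbil. Dropping the length step and also the rescaling (values as deposited) gave 386 in gerbil and 3824 in mouse, members 0 and 5; dropping it and centring each library on its median gave 2399 in mouse. Leaving out 1 library each gave 1689 to 2006 genes in gerbil and 1957 to 2140 in mouse, and members from 2 (without PEK) to 4 (without SEK) in gerbil and from 3 (without E21) to 7 (without E23) in mouse, with 5 without PEK; the rule is easier to meet with fewer libraries.

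Within mouse, a pseudocount of 0.1 gave 5 members higher in PEK, among 1471 of 13015 rows. Without the length step 2431 rows were higher in PEK, and members were 2 in SEK and 6 in PEK. Within gerbil, the values as deposited gave 193 rows in E23 and 65 in E21 of 8918, and 3 members in E23. The cause of these shifts was not tested. Scaled read counts in gerbil were not run, since those columns were not used. No paired analysis was possible because the columns carry no replicate numbers. The SE rests on 2 libraries per species, depth is not used, and levels near 0, as in Kcnq1 and Slc22a18, are the least precise.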
